A study of Homo sapiens with 70 samples.

Results

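A set of 10 growth factor genes was followed through all groups of 3 RNA-seq experiments on the chromatin protein HMGA1, namely *PDGFA*, *PDGFB*, *PDGFC*, *PDGFD*, *KITLG*, *HGF*, *FGF2*, *FGF5*, *FGF7* and *ANGPTL4*. They were taken as a list of names, were all found among the 44503 genes counted, and were not chosen by a threshold on a value. The cells were IMR90, diploid fibroblasts of human fetal lung kept in 5% oxygen, and H1299, a human non-small cell lung carcinoma line kept in atmospheric oxygen. Every IMR90 group, the growing controls included, carried ER:HRAS G12V, an oncogenic HRAS fused to an oestrogen receptor domain that 4-hydroxytamoxifen (4OHT) activates, from the vector pLNCX2. OIS (oncogene-induced senescence) cells had 6 days of 100 nM 4OHT and Grow cells had none, so 4OHT, active HRAS and the days in culture cannot be told apart.

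The first experiment held Grow and OIS cells with the empty vector pMSCV miR v, and Grow-shA1 and OIS-shA1 cells with a hairpin against *HMGA1* in the same vector, with 8 libraries in each group. The second held Grow-v-v and OIS-v-v cells with the empty vectors pSuper v and pMSCV miR v, OIS-shCEBPB cells with a pSuper hairpin against the transcription factor gene *CEBPB*, OIS-shp53 cells with the pMSCV miR hairpin named in the labels, and OIS-shCEBPB-shp53 cells with both, with 5 libraries in each group. H1299 cells (7 libraries) carried an empty MSCV vector and H1299-shA1 cells (6 libraries) an MSCV hairpin against *HMGA1*. Neither carried ER:HRAS. The hairpins were delivered to drug-selected pools of cells, and IMR90 and H1299 are each a single cell line. The labels call the libraries biological replicates but speak of 6 for each condition where the titles show 8 in the first experiment. If they did not come from separate cultures, the p-values measure only the spread between these libraries.

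Platelet-derived growth factors (PDGFs) act on mesenchymal cells through the receptor tyrosine kinases PDGFRA and PDGFRB. PDGF-A and PDGF-B are secreted ready for use, whereas PDGF-C and PDGF-D carry a CUB domain that proteases must remove. KIT ligand (stem cell factor) binds KIT on haematopoietic precursors, germ cells, melanocytes and mast cells. Hepatocyte growth factor (HGF) is made by mesenchymal cells as an inactive precursor, is cleaved by serine proteases, and binds MET on epithelium. FGF2 and FGF5 bind several fibroblast growth factor receptors, and FGF7 (keratinocyte growth factor) is made by fibroblasts and acts on the epithelial form of FGFR2. ANGPTL4 is a secreted protein that inhibits lipoprotein lipase and is induced by fatty acids, glucocorticoids and hypoxia.

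Total counts ran from 1903607 to 24890797 in the 70 libraries, and all but the shallowest, OIS replicate 4, had at least 13904974. The targeted genes *HMGA1* and *CEBPB* fell in their knock-downs, *HMGA1* from 479 to 34.5 CPM (counts scaled to a common library size) in Grow, from 736 to 59.8 CPM in OIS and from 1887 to 379 CPM in H1299 cells, and *CEBPB* from 296 CPM in OIS-v-v to 35.5 in OIS-shCEBPB and 32.4 in the double knock-down. All 9 fibroblast markers were at 1 CPM or more in every IMR90 group, but their sum was 45702 to 57893 CPM in Grow and 10144 to 12688 CPM in OIS libraries. Other cell types were scored with markers too. In IMR90 cells 3 to 5 of 7 epithelial markers were at 1 CPM or more, with sums of 43.9 to 147.6 CPM. Of 4 blood cell markers only *CD68* passed 1 CPM, with 19.1 CPM in Grow, 52.2 in OIS, 38.1 in Grow-v-v and 63.2 in OIS-v-v, while the defining markers *HBB* and *PTPRC* stood at or near 0. The endothelial marker *CDH5* was also near 0 while *TEK* was not (148 CPM in Grow). Of the 3 endothelial markers matched, 1 was at 1 CPM or more in Grow and 2 in OIS, *TEK* and *VWF*. OIS-v-v and OIS-shp53 cells also had 2 at this level. Of 3 smooth muscle markers only *CNN1* passed 1 CPM. In H1299 cells 2 of 9 fibroblast markers were at 1 CPM or more, and their sum of 1625.5 to 1764.8 CPM was nearly all *VIM* (1693 CPM), while *COL1A2*, *LUM* and *THY1* had at most 3 counts in any library. In H1299-shA1 cells this sum was 1908 to 2190.5 CPM. The epithelial markers summed to 819 to 1136 CPM in H1299 and to 631 to 726 CPM in H1299-shA1 libraries. The part of these marker levels in the results was not tested. In the second experiment the libraries fell into replicates 1 to 3 and replicates 4 and 5. The first principal component of the deviations from the group means, with 36.5% of that variance, put these sets on opposite sides in all 5 groups. The labels do not say what the sets are, so values within each set are given below for some members and comparisons.

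The 10 genes lie on 7 autosomes of hg19, with 3 of them on chromosome 4. *PDGFA* (ENSG00000197461) spans bases 536895 to 559933 of chromosome 7 on the minus strand, and *HGF* (ENSG00000019991) 81328322 to 81399754 of the same chromosome and strand. *PDGFB* (ENSG00000100311) lies on chromosome 22 at 39619364 to 39640756 (minus strand), *PDGFD* (ENSG00000170962) on chromosome 11 at 103777914 to 104035107 (minus strand) and *KITLG* (ENSG00000049130) on chromosome 12 at 88886570 to 88974628 (minus strand). *PDGFC* (ENSG00000145431) lies on chromosome 4 at 157681606 to 157892546 (minus strand), *FGF2* (ENSG00000138685) at 123747863 to 123819391 (plus strand) and *FGF5* (ENSG00000138675) at 81187753 to 81257834 (plus strand). *FGF7* (ENSG00000140285) occupies 49715293 to 49780972 of chromosome 15 and *ANGPTL4* (ENSG00000167772) 8428173 to 8439254 of chromosome 19, both on the plus strand. Each value below counts fragments or reads over all exons of a gene. Where a table states its settings, multi-mapping reads and reads shared between genes were left out. *FGF2* shares 11.9% of its exon bases with the antisense gene *NUDT6*, and *FGF7* has near-identical pseudogene copies, so both may be undercounted, and without strand the reads of *FGF2* and *NUDT6* cannot be told apart by direction.

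The bases just before the start are shown for the 4 members that were called changed in OIS-shCEBPB cells. These are the members whose level differed most plainly with the knock-down of a transcription factor. Each stretch is the 100 bases 5' of the RefSeq start (GRCh38.p14), written 5' to 3' on the gene's strand. Capitals mark TATAAA and the GC box (GGGCGG or its complement CCGCCC).
KITLG, chr12:88580472-88580571, minus strand: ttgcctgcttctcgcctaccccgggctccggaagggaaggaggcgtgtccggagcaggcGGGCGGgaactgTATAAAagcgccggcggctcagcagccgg
ANGPTL4, chr19:8364055-8364154, plus strand: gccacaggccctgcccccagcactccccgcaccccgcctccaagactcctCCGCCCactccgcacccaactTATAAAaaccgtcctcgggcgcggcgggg
HGF, chr7:81770048-81770147, minus strand: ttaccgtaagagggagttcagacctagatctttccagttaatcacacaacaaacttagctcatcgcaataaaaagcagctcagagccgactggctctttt
FGF2, chr4:122826731-122826830, plus strand: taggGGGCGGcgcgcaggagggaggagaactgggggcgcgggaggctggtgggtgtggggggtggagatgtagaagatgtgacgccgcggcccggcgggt
*KITLG* and *ANGPTL4*, both of which fell in those cells, hold TATAAA with its first base at -29 and 1 GC box, in stretches of 69% and 71% G and C. *FGF2*, which also fell, has a GC box and no TATAAA (73% G and C), and *HGF*, which rose, has neither (43% G and C). Over the 250 bases before the start and on both strands, TATAAA was found in 10.7% of 35116 promoters and in 3 of the 8 members with an entry, *ANGPTL4*, *FGF5* and *KITLG*. GGGCGG was found in 42.6% of promoters and in 6 of the 8 members. The letters TTNNGCAA, a C/EBP motif, occurred in 9.05% of promoters and in 0 of the 8, and the AP-1 motif TGANTCA in 6.57% and in 0 of the 8. No overlap between motifs was removed, and these matches describe letters in this window only.

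The order of the members was set by RPKM, which divides by exon length and allows levels of different genes to be compared. In Grow cells *FGF2* led with 40.9 RPKM, followed by *FGF5* (31.5), *PDGFC* (24.5), *HGF* (21.003) and *KITLG* (15.3). *PDGFB* (8.12), *FGF7* (5.41), *ANGPTL4* (5.26), *PDGFA* (4.44) and *PDGFD* (1.92) followed. Only *FGF5* and *PDGFC*, *KITLG* and *PDGFB*, and *PDGFA* and *PDGFD* did not overlap with the next gene over the 8 libraries. In OIS cells *FGF2* still led with 71.3 RPKM and did not overlap with *ANGPTL4* (36.1), which was second, ahead of *HGF* (24.5) and *PDGFC* (20.4). *FGF7* (0.763) and *PDGFD* (0.472) were last and overlapped. In OIS-shCEBPB cells *HGF* came first with 38.8 RPKM, above every library of *FGF2*. In H1299 cells *ANGPTL4* led with 19.4 RPKM, followed by *FGF2* (10.5) and *FGF5* (8.37).

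OIS was compared with Grow to ask how the growth factors respond to active HRAS. All 10 members were called changed (edgeR quasi-likelihood test, adjusted p below 0.05 over all genes tested), 3 higher and 7 lower, where 74.8% of the 13304 genes tested were called. Without OIS replicate 4 the count was 9. The median log2 fold change was -0.74 over the members and 0.03 over all genes. In bulk RNA, fewer cells of a type and less RNA per cell cannot be told apart. The sum of the fibroblast markers fell in the same libraries, and its part in these changes was not tested.

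Among the genes that rose, *ANGPTL4* had 11.1, 13.1 and 15.99 CPM (lowest, median and highest) in the Grow libraries and 70.2, 91.4 and 108 CPM in the OIS libraries. All OIS libraries lay above all Grow libraries, by 7.07-fold (log2 fold change 2.82, standard error 0.08, edgeR adjusted p = 4.6e-23). *FGF2* had 174, 263 and 408 CPM in Grow and 420.1, 477 and 577 CPM in OIS libraries, again without overlap (1.77-fold, log2 0.83, standard error 0.11, edgeR adjusted p = 5.34e-08). The rise of *HGF* was small and its groups overlapped, with 134, 192 and 239 CPM in Grow and 188, 211 and 263 CPM in OIS (log2 0.24, standard error 0.10, edgeR adjusted p = 0.0314). Without OIS replicate 4 it was 0.20 with an edgeR adjusted p of 0.0589, and the call was also lost without Grow replicate 1, 2, 3, 4 or 7 or OIS replicate 1 or 2 (adjusted p of 0.00672 to 0.127 over the 16 fits) and with DESeq2 (adjusted p = 0.131).

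The fibroblast growth factors other than *FGF2* fell. *FGF7* went from 18.9, 28.8 and 43.98 CPM in Grow to 3.002, 3.96 and 5.85 CPM in OIS libraries, a 7.22-fold fall without overlap (log2 -2.85, standard error 0.16, edgeR adjusted p = 1.37e-15). *FGF5* went from 168, 179 and 238 CPM to 55.4, 63.0 and 73.6 CPM, 2.96-fold lower (log2 -1.57, standard error 0.06, edgeR adjusted p = 2.78e-19).

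All 4 PDGF genes fell, by unequal amounts. *PDGFD* had 6.23, 8.61 and 9.54 CPM in Grow and 1.501, 1.83 and 3.16 CPM in OIS libraries, 3.95-fold lower (log2 -1.98, standard error 0.14, edgeR adjusted p = 2.46e-13), with only 4 counts in OIS replicate 4. *PDGFA* had 13.3, 13.8 and 14.8 CPM in Grow and 4.59, 5.02 and 6.40 CPM in OIS (log2 -1.38, standard error 0.08, edgeR adjusted p = 5.04e-15). *PDGFB* fell from 27.2, 28.999 and 39.4 CPM to 13.8, 16.2 and 19.5 CPM (log2 -0.93, standard error 0.08, edgeR adjusted p = 1.28e-11). These 3 genes did not overlap between the groups, but the share of all genes without overlap was not counted in this or any other comparison. *PDGFC* overlapped, with 119, 136 and 152 CPM in Grow and 98.1 to 137 CPM in OIS (log2 -0.26, standard error 0.06, edgeR adjusted p = 0.000136). With library sizes alone, which moved the median of all genes from 0.03 to 0.22, the log2 fold change of *PDGFC* was -0.07 (edgeR adjusted p = 0.237).

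*KITLG* had 66.8, 93.8 and 110.1 CPM in Grow and 51.7, 61.6 and 70.8 CPM in OIS libraries, 1.47-fold lower (log2 -0.55, standard error 0.08, edgeR adjusted p = 7.98e-07). The groups overlapped, since 5 of 8 OIS libraries lay below all Grow libraries.

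**Figure D1:**
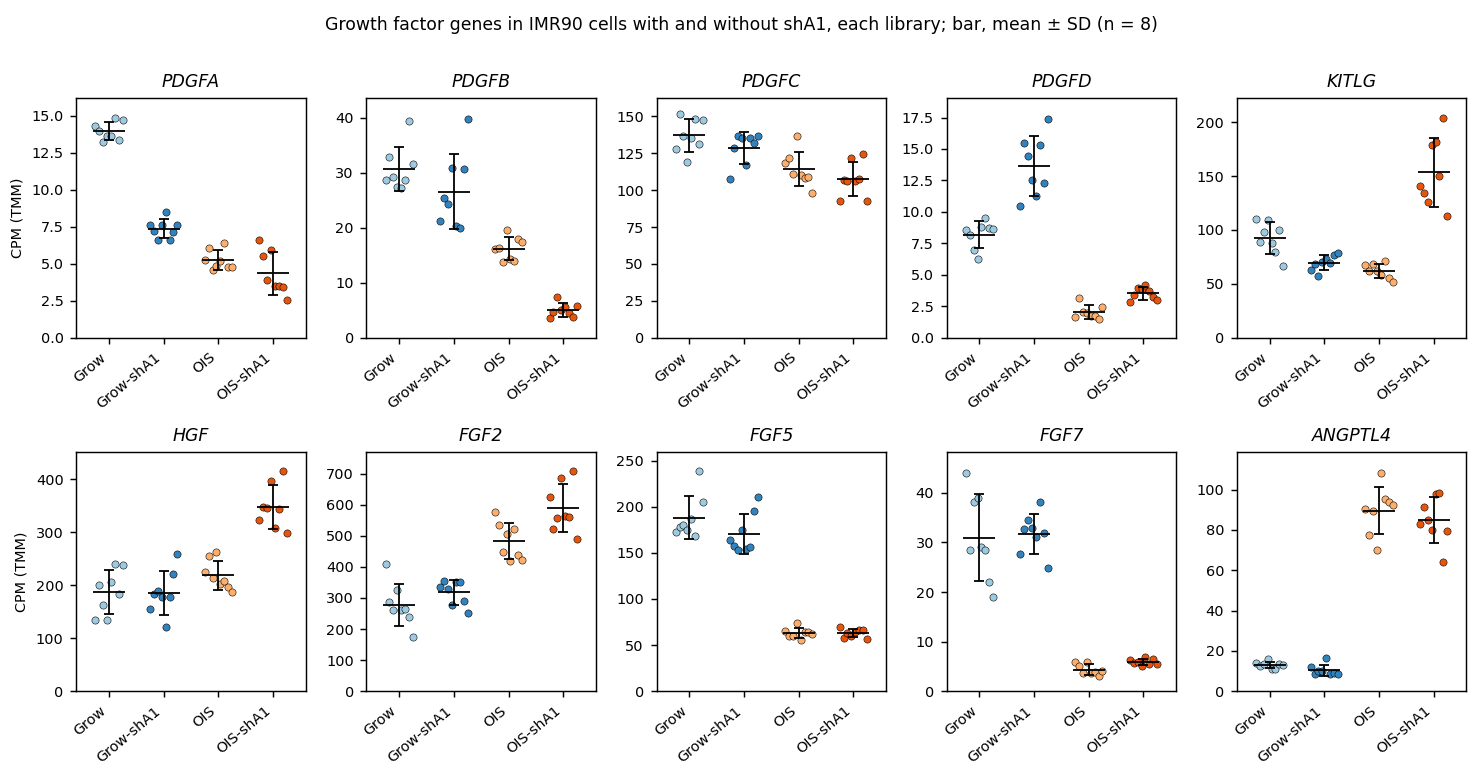
Level of each member in CPM (y axis, from 0) in the 4 groups of the first experiment, with a point for each library and the mean ± SD (n = 8). *KITLG* and *HGF* are highest in OIS-shA1 libraries, at 112 to 204 and 298 to 416 CPM, and *PDGFB* is lowest there, at 3.64 to 7.33 CPM.

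OIS-v-v was set against Grow-v-v to see the same response in the second experiment, where the control cells carried a pair of empty vectors. Here 9 of 10 members were called, 4 higher and 5 lower (45.8% of the 13344 genes tested). *ANGPTL4* rose from 8.82, 12.3, 11.3, 11.1 and 19.1 CPM in Grow-v-v replicates 1 to 5 to 78.8, 76.9, 82.5, 68.3 and 72.9 CPM in OIS-v-v (6.11-fold, log2 2.61, standard error 0.17, edgeR adjusted p = 1.83e-07). *FGF7* fell from 30.4, 27.3, 27.9, 20.7 and 15.8 CPM to 2.08, 2.08, 1.76, 2.44 and 2.77 CPM (10.9-fold, log2 -3.45, standard error 0.20, edgeR adjusted p = 7.23e-08). Neither gene overlapped between the groups, and the share of all genes without overlap was not counted. *FGF2* rose (log2 0.83, standard error 0.10), while *FGF5* (-1.03, standard error 0.15), *PDGFA* (-0.95, standard error 0.15), *PDGFB* (-0.62, standard error 0.19) and *PDGFD* (-1.48, standard error 0.19) fell, all with an edgeR adjusted p of at most 0.0186. Some falls differed in size between replicates 1 to 3 and replicates 4 and 5. The log2 fold changes were -0.72 and -1.44 for *FGF5* and -0.71 and -1.29 for *PDGFA*. They were -1.80 and -0.93 for *PDGFD* and -3.86 and -2.80 for *FGF7*, and all were called in both sets.

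*KITLG* moved the opposite way from the first experiment. Its levels were 51.7, 45.4, 42.3, 42.4 and 35.97 CPM in Grow-v-v and 129.5, 118, 118.1, 77.3 and 67.0 CPM in OIS-v-v replicates 1 to 5. Every OIS-v-v library lay above every Grow-v-v library (2.35-fold higher, log2 1.23, standard error 0.18, edgeR adjusted p = 0.000107), and it was called in both sets, with log2 fold changes of 1.38 in replicates 1 to 3 and 0.89 in replicates 4 and 5. In the first experiment the log2 fold change was -0.55. The tables were normalised separately, the vectors differ, and the difference between the experiments was not tested.

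*HGF* and *PDGFC* differed in call or direction between the sets of replicates. *HGF* had 132.1, 132.8, 125.4, 97.7 and 73.3 CPM in Grow-v-v and 137, 129.8, 127, 251.1 and 222.7 CPM in OIS-v-v. OIS-v-v replicates 4 and 5 were thus the highest and the first 3 lay among the Grow-v-v values or just above them. Its log2 fold change was 0.63 over all replicates (standard error 0.22, edgeR adjusted p = 0.0344), 0.01 in replicates 1 to 3 (edgeR adjusted p = 0.929) and 1.48 in replicates 4 and 5 (edgeR adjusted p = 3.11e-06). The call was lost without replicate 4 or 5 of either group. With the replicate number as a block it was 0.60 with an edgeR adjusted p of 0.0987, and 8 members were called (49.7% of all genes). *PDGFC* was not called over all replicates (log2 -0.09, 95% interval -0.40 to 0.23, edgeR adjusted p = 0.693), yet its log2 fold change was -0.42 in replicates 1 to 3 (edgeR adjusted p = 2.17e-07) and 0.48 in replicates 4 and 5 (edgeR adjusted p = 0.0215). The difference between the sets was not tested.

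The effect of shA1 was measured first in growing cells, where 4 of 10 members were called, 1 higher and 3 lower (29.9% of the 13072 genes tested). *PDGFA* fell from 13.3, 13.8 and 14.8 CPM to 6.59, 7.41 and 8.52 CPM in Grow-shA1 libraries, 1.89-fold lower without overlap (log2 -0.92, standard error 0.07, edgeR adjusted p = 1.12e-10). *PDGFD* rose from 6.23, 8.61 and 9.54 CPM to 10.4, 13.5 and 17.4 CPM, 1.67-fold, also without overlap (log2 0.74, standard error 0.10, edgeR adjusted p = 3.69e-06). These genes encode ligands that differ in receptor, since PDGF-A homodimers bind PDGFRA only and PDGF-D favours PDGFRB. *KITLG* was lower, with 57.1, 69.5 and 78.7 CPM in Grow-shA1 (log2 -0.41, standard error 0.08, edgeR adjusted p = 0.000322), and its groups overlapped. *ANGPTL4* was lower by a margin that single libraries decided (log2 -0.33, standard error 0.12, edgeR adjusted p = 0.0339), since the adjusted p ran from 0.000354 to 0.0811 with each of the 16 libraries left out in turn. The call was lost without Grow replicate 1, 3 or 4 or without Grow-shA1 replicate 2, 3, 4, 6, 7 or 8. The other 6 were not called, *HGF* with a log2 fold change of -0.02 (95% interval -0.26 to 0.23) and *PDGFB* with -0.20 (95% interval -0.42 to 0.01).

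In OIS cells shA1 was followed by changes in 6 of 10 members, 5 higher and 1 lower (35.9% of the 13327 genes tested), and the count was 6 without OIS replicate 4. *KITLG* rose from 51.7, 61.6 and 70.8 CPM in OIS to 112.5, 145 and 204 CPM in OIS-shA1 libraries, 2.47-fold (log2 1.31, standard error 0.10, edgeR adjusted p = 2.18e-11). *HGF* rose from 188, 211 and 263 CPM to 298, 345 and 416 CPM, 1.599-fold (log2 0.68, standard error 0.07, edgeR adjusted p = 7.12e-09). *PDGFB* fell from 13.8, 16.2 and 19.5 CPM to 3.64, 4.84 and 7.33 CPM, 3.16-fold (log2 -1.66, standard error 0.11, edgeR adjusted p = 8.07e-12). In each of these 3 genes all OIS-shA1 libraries lay on one side of all OIS libraries, but the share of all genes that did so was not counted.

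*PDGFD* (log2 0.79, standard error 0.16, edgeR adjusted p = 0.000257), *FGF7* (0.48, standard error 0.13, edgeR adjusted p = 0.00326) and *FGF2* (0.29, standard error 0.07, edgeR adjusted p = 0.00234) were also higher in OIS-shA1 cells, with overlapping groups. *PDGFA* had 2.53, 3.68 and 6.64 CPM in OIS-shA1 against 4.59, 5.02 and 6.40 CPM in OIS libraries and was not called (log2 -0.28, edgeR adjusted p = 0.166) except without OIS-shA1 replicate 1. *ANGPTL4* (log2 -0.10, 95% interval -0.25 to 0.05) and *FGF5* (0.01, 95% interval -0.09 to 0.12) were not called either.

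The interaction of shA1 with OIS tests whether the effect of shA1 differed between OIS and Grow, and 4 of 10 members passed (23.6% of the 13903 genes tested). *KITLG* had the largest term, 1.72 on the log2 scale (standard error 0.14, 95% interval 1.45 to 1.99, edgeR adjusted p = 1.81e-12), as it was lower with shA1 in Grow and higher in OIS. The term of *PDGFB* was -1.45 (standard error 0.17, edgeR adjusted p = 3.07e-08), that of *HGF* 0.69 (standard error 0.16, edgeR adjusted p = 0.000908) and that of *PDGFA* 0.64 (standard error 0.17, edgeR adjusted p = 0.00414). *PDGFD* had a term of 0.05 and was higher with shA1 in both states. Library sizes alone moved the median of all genes to -0.13 in this comparison.

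Seen from the shA1 cells, OIS-shA1 against Grow-shA1, all 10 members were called, 4 higher and 6 lower (73.1% of the 13239 genes tested). *KITLG* rose here by 2.22-fold (log2 1.15, standard error 0.09, edgeR adjusted p = 1.66e-11), the direction it had in the second experiment and not in Grow and OIS cells of the first. *PDGFB* fell by 5.24-fold, from 19.9, 24.8 and 39.7 CPM in Grow-shA1 libraries (log2 -2.39, standard error 0.15, edgeR adjusted p = 3.6e-14). *HGF* rose by 1.88-fold, from 121, 181 and 259 CPM (log2 0.91, standard error 0.10, edgeR adjusted p = 4.48e-09). *ANGPTL4* rose by 8.23-fold and *FGF7* fell by 5.33-fold.

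**Figure D2:**
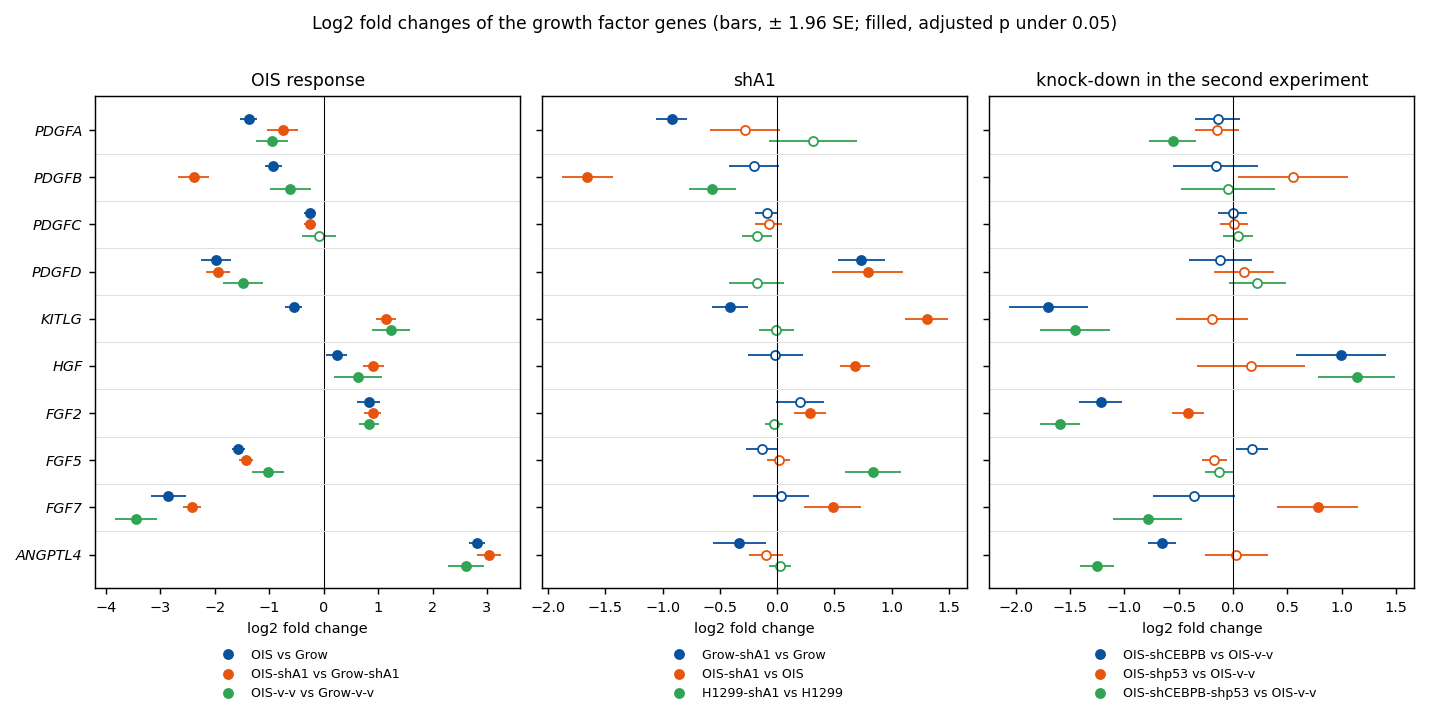
Log2 fold change of each member in the OIS response (left), under shA1 (middle) and under the knock-downs of the second experiment (right), with bars for 95% intervals and filled symbols for an edgeR adjusted p below 0.05. *KITLG* lies at -0.55 in OIS against Grow and at 1.23 in OIS-v-v against Grow-v-v, and at -1.70 in OIS-shCEBPB against OIS-v-v.

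The second experiment asked which of these levels in OIS depend on *CEBPB*, the gene of a transcription factor of the senescence secretome. In OIS-shCEBPB cells 4 of 10 members were called, 1 higher and 3 lower (17.1% of the 13396 genes tested), and all 4 were called within both sets of replicates. None of these 4 overlapped with OIS-v-v, but the share of all genes without overlap was not counted. *KITLG* had 34.9, 38.02, 30.9, 26.8 and 26.1 CPM in OIS-shCEBPB replicates 1 to 5, below every OIS-v-v library and, in 4 of 5, below every Grow-v-v library (3.25-fold lower than OIS-v-v, log2 -1.70, standard error 0.19, edgeR adjusted p = 6.24e-05). *FGF2* went from 351, 334, 347, 415 and 352 CPM in OIS-v-v to 135, 150.2, 129.8, 179 and 179 CPM (2.33-fold lower, log2 -1.22, standard error 0.10, edgeR adjusted p = 6.16e-06). Its Grow-v-v values were 224, 206, 199, 217 and 169.9 CPM.

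*ANGPTL4* fell to 47.2, 48.1, 53.2, 48.9 and 43.8 CPM (1.57-fold lower, log2 -0.65, standard error 0.07, edgeR adjusted p = 3.91e-05) and thus lay between the Grow-v-v and the OIS-v-v libraries. *HGF* rose to 315, 313, 262, 409 and 429.7 CPM (1.99-fold, log2 0.99, standard error 0.21, edgeR adjusted p = 0.0063), with log2 fold changes of 1.17 in replicates 1 to 3 and 0.83 in replicates 4 and 5. The highest OIS-v-v library, replicate 4 with 251.1 CPM, lay just under the lowest OIS-shCEBPB library. The 4 PDGF genes were not called, with log2 fold changes of -0.16 for *PDGFB*, -0.14 for *PDGFA* and -0.12 for *PDGFD*. With the replicate block *FGF5* was called as well (edgeR adjusted p = 0.0231).

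In OIS-shp53 cells 2 of 10 members were called (4.44% of the 13378 genes tested). For shp53 the knock-down is taken from the label, with no value given here to check it. *FGF2* was lower, with 275, 264, 244, 306 and 262 CPM, all below the OIS-v-v values (log2 -0.41, standard error 0.07, edgeR adjusted p = 0.00902). *FGF7*, the growth factor for epithelium, was higher, with 4.26, 2.89, 2.84, 4.18 and 4.93 CPM, all above the OIS-v-v values (1.71-fold, log2 0.78, standard error 0.19, edgeR adjusted p = 0.0403). With each of the 10 libraries left out in turn, the adjusted p of *FGF7* ran from 0.033 to 0.107 and missed the threshold without OIS-v-v replicate 1, 2 or 3 or OIS-shp53 replicate 1, 4 or 5. *FGF7* was called, however, with the replicate number as a block (edgeR adjusted p = 0.00149) and within both sets. Its log2 fold change was 0.78 in replicates 1 to 3 (edgeR adjusted p = 0.00355) and 0.80 in replicates 4 and 5 (edgeR adjusted p = 0.0389). With the replicate number as a block, 5 of 10 members were called (22.7% of genes), *PDGFB* (log2 0.52, edgeR adjusted p = 0.0118), *HGF* (0.16, edgeR adjusted p = 0.0108) and *FGF5* (edgeR adjusted p = 0.0363) in addition. *PDGFB* was at log2 0.65 in replicates 1 to 3 (edgeR adjusted p = 0.000185) and 0.29 in replicates 4 and 5 (edgeR adjusted p = 0.4995). *KITLG* was not called over all replicates (log2 -0.19, 95% interval -0.52 to 0.14), and its log2 fold change was -0.35 in replicates 1 to 3 (edgeR adjusted p = 1.63e-06) and 0.14 in replicates 4 and 5 (edgeR adjusted p = 0.357). *ANGPTL4* spread widely, with 107.5, 81.7, 78.7, 55.9 and 62.8 CPM (log2 0.03, 95% interval -0.26 to 0.32).

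In the double knock-down 6 of 10 members were called, 1 higher and 5 lower (33.6% of the 13388 genes tested). None of the 6 overlapped with OIS-v-v, and here too the share of all genes without overlap was not counted. *FGF2* had 104, 115, 105, 131 and 141 CPM, below all Grow-v-v libraries (3.02-fold lower than OIS-v-v, log2 -1.59, standard error 0.09, edgeR adjusted p = 1.94e-07). *ANGPTL4* had 33.5, 31.6, 30.4, 27.7 and 36.3 CPM (2.38-fold lower, log2 -1.25, standard error 0.08, edgeR adjusted p = 3.13e-07). *KITLG* had 37.3, 39.9, 37.0, 36.7 and 36.02 CPM (2.73-fold lower, log2 -1.45, standard error 0.16, edgeR adjusted p = 3.76e-05).

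*HGF* had 377, 387, 349, 408 and 391 CPM in the double knock-down (2.20-fold higher, log2 1.14, standard error 0.18, edgeR adjusted p = 0.00046), with log2 fold changes of 1.503 and 0.76 in the sets of replicates. *FGF7* had 1.38, 1.17, 1.34, 1.36 and 1.20 CPM (1.72-fold lower, log2 -0.79, standard error 0.16, edgeR adjusted p = 0.00266), and *PDGFA* 5.51, 5.21, 4.67, 5.92 and 5.73 CPM (log2 -0.55, standard error 0.11, edgeR adjusted p = 0.00226), though *PDGFA* was not called in replicates 4 and 5 alone. *PDGFB*, *PDGFC*, *PDGFD* and *FGF5* were not called over all replicates. In replicates 1 to 3 alone *PDGFC* was higher (log2 0.21, edgeR adjusted p = 0.000643) and *FGF5* lower (-0.20, edgeR adjusted p = 0.00546). Neither was called in replicates 4 and 5, where *PDGFC* had the opposite sign (log2 -0.19, edgeR adjusted p = 0.0609). The 3 knock-down comparisons share the OIS-v-v libraries.

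The interaction of shCEBPB with shp53, which tests whether the double knock-down differs from the sum of the single ones, called 0 of 10 members with edgeR and 1 with DESeq2 (0.0432% of the 13873 genes tested with edgeR). *FGF7* (log2 -1.20, standard error 0.26), *ANGPTL4* (-0.62) and *KITLG* (0.45) had an unadjusted edgeR p below 0.05. The share of all genes at that limit is not given here, so no excess of members can be read from it. Their edgeR adjusted p was 0.136, 0.511 and 0.984. With the replicate block 2 members were called (0.75% of genes), *FGF7* (edgeR adjusted p = 0.00592) and *ANGPTL4* (edgeR adjusted p = 0.0376). *FGF7* was higher with shp53 alone and lower with shp53 and shCEBPB together.

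**Figure D3:**
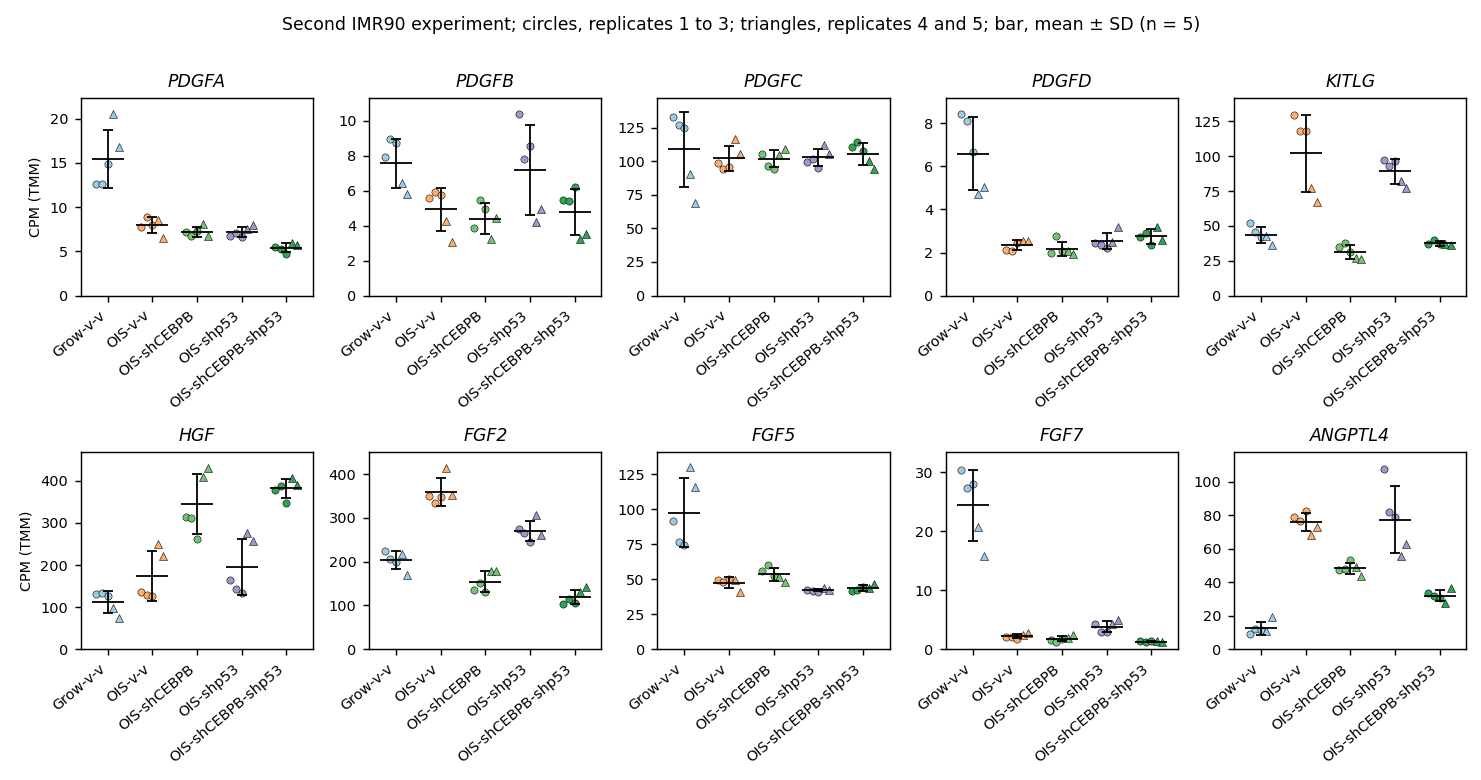
Level of each member in CPM (y axis, from 0) in the 5 groups of the second experiment, with circles for replicates 1 to 3, triangles for replicates 4 and 5, and the mean ± SD (n = 5). In OIS-v-v the *HGF* triangles stand at 251.1 and 222.7 CPM above circles at 127 to 137 CPM, and *KITLG* is lowest in the groups with shCEBPB.

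H1299 cells had no ER:HRAS and were compared with H1299-shA1 cells to measure shA1 in a tumour line. *HGF* had 1 count in 1 of 7 H1299 libraries and 0 in all 6 H1299-shA1 libraries, and *FGF7* had 0 or 1 count per library. With 0 counted, a level of up to 3 counts (0.127 to 0.168 CPM in these libraries) could be missed by counting error alone. Of the 8 members tested 2 were called (15.6% of the 14840 genes tested). *PDGFB* fell from 6.84, 9.05 and 10.4 CPM in H1299 to 4.46, 6.09 and 6.64 CPM in H1299-shA1 libraries, 1.48-fold without overlap (log2 -0.57, standard error 0.11, edgeR adjusted p = 0.000998). *FGF5*, which was not called with shA1 in IMR90 cells, rose from 37.95, 46.3 and 71.7 CPM to 69.4, 90.2 and 105 CPM, 1.79-fold (log2 0.84, standard error 0.12, edgeR adjusted p = 0.000133). Its groups overlapped, with 5 of 6 H1299-shA1 libraries above all H1299 libraries.

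*KITLG* had 18.5, 22.9 and 25.999 CPM in H1299 and 20.6, 22.1 and 25.2 CPM in H1299-shA1 libraries (log2 -0.01, 95% interval -0.16 to 0.15). *FGF2* (log2 -0.02, 95% interval -0.10 to 0.05) and *ANGPTL4* (0.02, 95% interval -0.07 to 0.12) had intervals of similar width, while *PDGFC* (-0.18), *PDGFD* (-0.18) and *PDGFA* (0.31) were not called. A difference of these effects between H1299 and IMR90 cells was not tested.

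**Figure D4:**
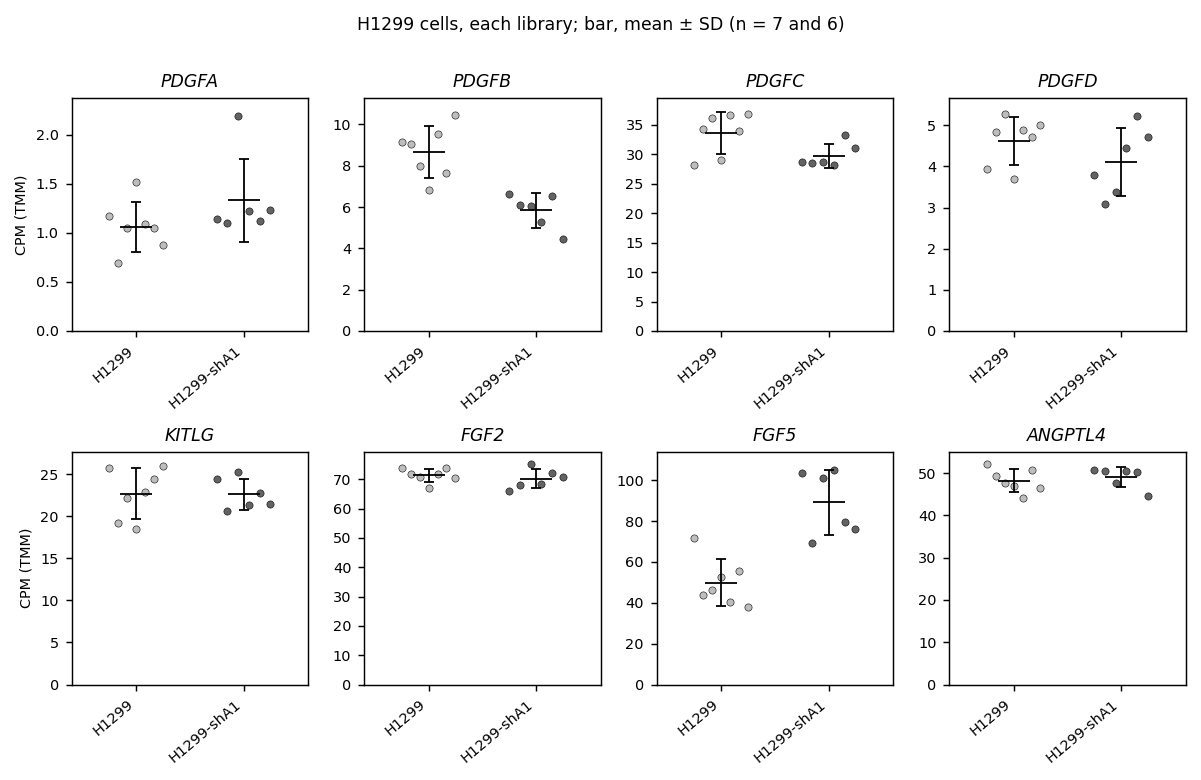
Level in CPM (y axis, from 0) of the 8 members tested in H1299 cells, with a point for each library and the mean ± SD (n = 7 for H1299 and n = 6 for H1299-shA1). *PDGFB* is lower in H1299-shA1 libraries, at 4.46 to 6.64 CPM, and *FGF5* is higher, at 69.4 to 105 CPM.

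The receptors of these ligands were read in the same libraries. In OIS against Grow, 7 of the 10 receptor genes tested were called, 1 higher and 6 lower, near the 74.8% of all genes called, with a median log2 fold change of -1.01 against 0.03 over all genes. In OIS-v-v against Grow-v-v the count was again 1 higher and 6 lower of 10 (45.8% of all genes), with a median of -0.65. In OIS against Grow *PDGFRB* fell from 300.2 to 126.5 CPM (log2 -1.21, standard error 0.04), *MET* from 67.6 to 22.6 CPM (-1.55, standard error 0.10) and *FGFR1* from 260.1 to 145 CPM (-0.81, standard error 0.04). *KIT* was low throughout and fell from 2.13 to 0.247 CPM (log2 -2.91, standard error 0.34), and *PDGFRA*, at 169.7 and 183 CPM, was not called. The edgeR adjusted p was at most 1.1e-08 for these 4 falls.

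With shA1 in OIS, 3 receptors were higher and 2 lower of 9 tested (35.9% of all genes called). *PDGFRB* fell to 82.1 CPM (log2 -0.64, standard error 0.06, edgeR adjusted p = 4.73e-09). Of its ligand genes, *PDGFB* fell and *PDGFD* rose in these cells (log2 0.79 for *PDGFD*, edgeR adjusted p = 0.000257). *MET* rose to 28.4 CPM (log2 0.32, standard error 0.08, edgeR adjusted p = 0.00159) in the cells where *HGF* rose. *PDGFRA* was higher (log2 0.28, standard error 0.06, edgeR adjusted p = 0.000477). In OIS-shCEBPB cells 4 receptors were higher and 2 lower of 10 (17.1% of all genes called), among them *MET*, which rose from 14.1 to 28.5 CPM (log2 1.02, standard error 0.08, edgeR adjusted p = 5.03e-06) beside *HGF*. *KIT* rose by 1.80 on the log2 scale (standard error 0.37, edgeR adjusted p = 0.0049), from 0.39 to 1.4 CPM, beside the fall of *KITLG*. In OIS-shp53 cells 2 of 9 were higher (4.44% of all genes called), *PDGFRB* at 218.5 CPM (log2 0.79, standard error 0.05, edgeR adjusted p = 7.59e-06) and *FGFR4*. The double knock-down had 6 higher and 2 lower of 10 (33.6% of all genes called). In H1299-shA1 cells 1 was higher and 2 lower of 8 (15.6% of all genes called). In H1299 cells *MET* was at 156 CPM, *PDGFRB* at 0.107 CPM and *KIT* had 0 counts in all libraries. *FGFR2*, whose epithelial form binds FGF7, was tested in no IMR90 or H1299 comparison because its counts were too low.

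**Figure D5:**
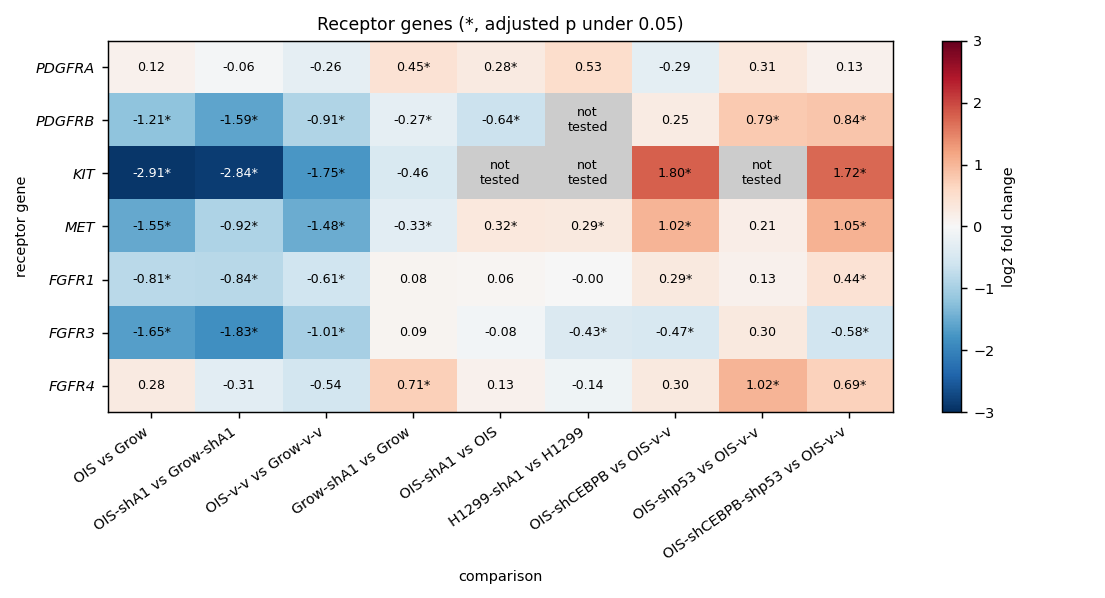
Log2 fold change (colour) of 7 receptor genes in the 9 comparisons of groups, with an asterisk for an edgeR adjusted p below 0.05 and grey where the gene was not tested. *KIT*, *MET* and *PDGFRB* are lower in OIS (-2.91, -1.55 and -1.21), and *MET* and *KIT* are higher in OIS-shCEBPB (1.02 and 1.80).

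The genes that activate or inhibit the HGF precursor were followed as a list. All 4 tested were called in OIS against Grow, 3 higher and 1 lower, where 74.8% of all genes were called. *PLAU*, the urokinase plasminogen activator, which can cleave the HGF precursor, rose (log2 0.72, standard error 0.04, edgeR adjusted p = 5.5e-15), as did *SPINT1*, an inhibitor of HGF-activating proteases, from 0.418 to 2.34 CPM (log2 2.43, standard error 0.25, edgeR adjusted p = 5.66e-10). The tissue plasminogen activator *PLAT* fell (log2 -0.59, standard error 0.06, edgeR adjusted p = 2.95e-09). In OIS-shA1 against OIS 3 of 4 were higher (35.9% of all genes called), *PLAUR*, *PLAT* and *PLAU*, with log2 fold changes of 0.37, 0.33 and 0.21. In OIS-shCEBPB cells, where *HGF* rose, 0 of 4 were called by edgeR (17.1% of all genes called), and 1, *PLAUR*, had an unadjusted p below 0.05, a gene named after its value was seen (log2 -0.14, edgeR adjusted p = 0.11). The share of all genes at that unadjusted limit is not given here. In H1299-shA1 cells 3 were higher and 1 lower (15.6% of all genes called), with *PLAU* at 0.81 (standard error 0.13, edgeR adjusted p = 0.000207) and *SPINT2* at -0.53 (standard error 0.08, edgeR adjusted p = 0.000229).

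For each member tested in all 3 tables, the genes with the most similar pattern were sought among 12277 genes, by the Euclidean distance over 8 log2 differences, as a description with no test. Of these members, *KITLG* and *PDGFB* lay farthest from their nearest genes. These were *OGFRL1* (distance 1.12) and *TMEM198* (1.20) for *KITLG*, and *DEPP1* (0.99) and *OLFML2A* (1.06) for *PDGFB*. Such distances were not computed for genes other than the members. *PDGFC*, which moved little, had *DVL3* and *WDR11*, both at 0.13. *FGF2* was nearest to *CAMK2N2* (0.58) and *TIMP1* (0.63), *FGF5* to *FSTL1* (0.61) and *TMEM117* (0.63), and *ANGPTL4* to *LONRF3* (0.75) and *PPFIBP2* (0.83). *PDGFA* was nearest to *SDC3* (0.61) and *SGK3* (0.63), and *PDGFD* to *TMEM106C* (0.71) and *MCM3* (0.73).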

How the data were processed

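The deposited files hold raw counts per gene, not normalised, for 70 poly(A)-selected libraries. According to the submitters' processing notes and the methods, the authors used STAR for alignment to hg19 and featureCounts for counting on GENCODE19 exons. Libraries were made with 1 of 2 stranded kits and sequenced on HiSeq-4000 or NovaSeq-6000 instruments, and the labels do not say which library had which. The headers of the first IMR90 table and the H1299 table show counting without strand, of fragments and of reads respectively, so kit and strand information was not used there. The second IMR90 table has no such header. The limit given for a count of 0 covers counting error only, and the 95% intervals of log2 fold changes include the spread between libraries.

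Groups were compared pairwise with edgeR 4.0.16 (R 4.3.3), after TMM scaling and filterByExpr (minimum of 10 counts), by the quasi-likelihood F test and Benjamini-Hochberg adjustment over all genes tested, with a call at an adjusted p below 0.05. The standard error is the size of the log2 fold change divided by the square root of F. Interactions were fitted with all groups they involve. CPM were scaled by TMM across each whole table, and RPKM divided these by exon length. Sequences and starts came from RefSeq (GRCh38.p14). The fits were tested on simulated counts. The alternatives were DESeq2 1.42.0, upper-quartile factors, library sizes alone, other filters, thresholds and fits, the replicate number as a block, and each library left out. Fits within sets of replicates were added after the data were seen. Same-numbered libraries of the second experiment deviated together, with correlations of 0.133 to 0.542 in every pair. The numbers were taken to pair the samples there, from the data and not from the labels. A library correlated best with its own number in only 2 to 4 of 5 cases. The split into sets of replicates was not removed from these correlations, so they cannot show pairing by number within a set. The main fits hold no pairing, and the block was run beside them. With the block the share of genes called went from 17.1% to 31.9% in OIS-shCEBPB and from 4.44% to 22.7% in OIS-shp53. It went from 33.6% to 43.4% in the double knock-down. A member not called in the main fits there may thus have been missed.

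All 10 members, the targeted genes, up to 3 called genes per list and comparison of largest fold with at least 1 CPM, and the receptors of the members could be named. The members and lists were chosen with earlier results of these data known. *PECAM1* was not analysed here, and the check of 1 targeted gene is not reported here, so the groups with shp53 rest on their labels. Plots were made in Python 3.11.15 (matplotlib 3.10.9).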

Additional observations from a re-analysis of the deposited data

Results flagged for a closer look

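In 106 member and group pairs with 4 to 10 libraries, 6 held a library far from the others of its group, where chance alone gives about 1 in 20. These were *PDGFB* in Grow replicate 7 (39.4 CPM, others 27.2 to 32.9), *ANGPTL4* in Grow-shA1 replicate 5 (16.5 CPM, others 8.37 to 12.05) and *FGF2* in OIS-v-v replicate 4 (415 CPM, others 334 to 352). The others were *FGF5* in OIS-v-v replicate 5 (41.0 CPM, others 48.1 to 50.2), *PDGFD* in OIS-shCEBPB replicate 2 (2.76 CPM, others 1.91 to 2.09) and *PDGFA* in H1299-shA1 replicate 4 (2.19 CPM, others 1.10 to 1.23). Of these, *PDGFD* and *PDGFA* rested on 60 and 39 counts in the library concerned.

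The effect of shA1 differed between OIS and Grow cells, by the interaction term in edgeR, for 4 of 10 members, where 23.6% of the 13903 genes tested were called. The log2 terms were 1.72 for *KITLG*, -1.45 for *PDGFB*, 0.69 for *HGF* and 0.64 for *PDGFA*.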

How the results depend on the processing

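Most calls and directions held. Of 1664 fits of single values with 1 library left out, 1573 kept direction and side of the threshold, as did 812 of 875 under the other settings. Depth limits OIS replicate 4 (1903607 counts in all, 4 of them on *PDGFD*) and *HGF* and *FGF7* in H1299 cells, which could not be tested. The cause of the moves below was not tested, unless the setting itself tests fewer samples.

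The count of members called in Grow-shA1 was 2 with a fold of at least 1.5 (5.64% of all genes called) and 7 with the replicate number as a block (30.3%). In the first experiment (correlations of -0.130 to 0.166) and in H1299 cells (-0.145 to 0.288) the numbers did not pair the libraries, and a library correlated best with its own number in 1 or 2 of 8 and in 1 of 6 cases. In OIS-shp53 the count was 1 with a fold of at least 1.5 (1.76% of all genes called), with library sizes alone (4.22%) and without a filter (1.94%), 5 with the block (22.7%), 6 in replicates 1 to 3 (34%), 5 with the set as a term (26.3%), and 1 to 3 with a library left out. In H1299 it was 1 with a fold of at least 1.5 (2.41%) and 3 with the block (16.2%). In the interaction of shCEBPB with shp53 it was 1 with DESeq2 (0.112%), 2 with the block (0.75%), 2 in replicates 1 to 3 (3.32%), 1 in replicates 4 and 5 (2.13%) and 2 with the set as a term (0.887%). Beyond these and the calls given beside the results of the second experiment, the block changed no call.

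The log2 fold changes that changed sign were almost all near 0 and not called. With library sizes alone they were 0.0136 for *HGF* in Grow-shA1, -0.0727 for *FGF5* in OIS-shA1, 0.0649 for *PDGFC* in OIS-shCEBPB, 0.058 for *PDGFB* in the double knock-down, and -0.0949, -0.0617 and -0.0275 for *PDGFC*, *PDGFD* and *FGF2* in the interaction of shA1 with OIS. *PDGFC* in OIS-shCEBPB was 0.0052 with upper-quartile factors, 0.0040 with no filter and 0.0281 in replicates 1 to 3, where *PDGFD* was 0.0365. In replicates 4 and 5, *PDGFC* was 0.48 in OIS-v-v (edgeR adjusted p = 0.0215), *PDGFB* 0.0414 in OIS-shCEBPB, *PDGFC* -0.19 in the double knock-down and -0.11 in the interaction of shCEBPB with shp53, and in OIS-shp53 *PDGFA* was 0.0231, *PDGFC* -0.0265, *KITLG* 0.14 and *ANGPTL4* -0.25. *HGF* in that interaction was 0.16 in replicates 1 to 3, 0.0204 with the set as a term and 0.0235 with the block, and *KITLG* in H1299 was 0.0309 with the block. With a library left out, *HGF* in Grow-shA1 ran from -0.10 to 0.0532, *FGF7* there from -0.0413 to 0.12, *FGF5* in OIS-shA1 from -0.0141 to 0.0328, *PDGFC* in OIS-shCEBPB from -0.0296 to 0.0501 and in OIS-shp53 from -0.0253 to 0.0617, *ANGPTL4* in OIS-shp53 from -0.12 to 0.13, *PDGFB* in the double knock-down from -0.18 to 0.0653 and *KITLG* in H1299 from -0.0487 to 0.028. In the interaction of shA1 with OIS *PDGFC* ran from -0.0145 to 0.0458, *PDGFD* from -0.0076 to 0.19 and *FGF2* from -0.0122 to 0.16, and in that of shCEBPB with shp53 *PDGFC* ran from -0.0158 to 0.0824, *HGF* from -0.20 to 0.14 and *FGF2* from -0.0251 to 0.10.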

Other observations

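Other ligands of receptor tyrosine kinases changed in OIS beside the members. Of 14 tested in OIS against Grow, 7 were higher and 5 lower (74.8% of all genes were called), with a median log2 fold change of 0.36 against 0.03 over all genes. The EGF receptor ligand genes *EREG* (log2 3.67, standard error 0.10) and *AREG* (3.26, standard error 0.16) rose, and *FGF1* fell (-2.88, standard error 0.09), all with an edgeR adjusted p of at most 7.09e-17. In OIS-shCEBPB against OIS-v-v, 5 of 12 were higher and 4 lower (17.1% of all genes were called). *AREG* (log2 -2.32, standard error 0.32, edgeR adjusted p = 0.000348) and *EREG* (-1.83, standard error 0.25, edgeR adjusted p = 0.000375) fell there, and *CSF1*, a growth factor of macrophages, rose (1.49, standard error 0.08, edgeR adjusted p = 1.62e-07).

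Of 14 feedback regulators and output genes of RAS-MAPK signalling, 12 were called higher and 2 lower in OIS against Grow, where 74.8% of all genes were called, with a median log2 fold change of 1.03 against 0.03 over all genes. *DUSP4* (2.80, standard error 0.08), *IER3* (2.43, standard error 0.09) and *DUSP6* (2.41, standard error 0.05) rose the most of this list. In OIS-v-v against Grow-v-v 10 of 14 were called higher and 0 lower by edgeR (45.8% of all genes were called). In Grow-shA1 against Grow 8 were higher and 1 lower (29.9% of all genes were called), with *DUSP6* at 0.73 (standard error 0.05, edgeR adjusted p = 1.3e-11) and *SPRY2* at 0.65 (standard error 0.05, edgeR adjusted p = 1.11e-10).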
